A study of Homo sapiens with 171 samples.

Results

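IGROV-1, an established human ovarian carcinoma cell line, was profiled after 48 h of cisplatin and without treatment. The 6 arrays of this line were taken from the labels as the arrays with cell line IGROV-1 and batch 3, and they are 6 of 171 arrays of ovarian cancer lines in the series. They comprise 3 cultures treated with cisplatin and 3 untreated cultures. Cells had been seeded in multiwell plates overnight, and the drug was given at the concentration that inhibits growth of the line to the GI50 level, whose value was not analysed here. Total RNA was labelled with biotin and read on Affymetrix gene arrays. Levels are log2 intensities made with RMA, a multiarray method of background correction, scaling and probe summary. A change is the cisplatin mean minus the untreated mean on that log2 scale, and 18417 genes had 1 value each. The labels number the cultures without saying whether each was grown on its own. The p-values therefore reflect only how the arrays used in each fit scatter, and that scatter may be technical. IGROV-1 is 1 line, and no vehicle control, other dose or other time was analysed here. A level in bulk RNA cannot tell fewer cells of a kind from less RNA per cell.

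Cisplatin binds purine bases of DNA and leaves adducts and crosslinks that block DNA and RNA polymerases. Nucleotide excision repair removes many of these lesions, while crosslinks that join both strands are handled by the Fanconi anemia proteins and homologous recombination. Stalled forks and breaks signal through checkpoint kinases to p53, a transcription factor that induces inhibitors of the cell cycle, death receptors, repair factors and its own inhibitor MDM2. Genes of DNA synthesis, core histones and mitosis are switched on by other factors in cells that pass through the S and G2 phases.

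The 6 arrays resembled each other more than any other line, with a correlation over genes of 0.9915 to 0.9953 within an arm, 0.9885 to 0.993 between arms and at most 0.9245 with an array of another line. Pairs of cisplatin cultures differed by a median of 0.142 to 0.157 log2 units per gene, and pairs of untreated cultures by 0.114 to 0.199. Untreated culture 3 stood somewhat apart. Its correlation was 0.9918 to 0.9925 with the other untreated cultures and reached 0.993 with a cisplatin culture. Calls of a change within IGROV-1 that rest on a single culture are given with their value or list count without it. Differences of single genes from the other lines are given without such values. Of 12 measured markers of ovarian carcinoma lines, 6 lay at or above the level of the median gene, 6.51, among them PAX8 at 9.60, 9.63 and 9.64 in cisplatin cultures and 10.12, 9.83 and 9.67 in untreated cultures. The rest of these were SOX17, KRT7, KRT8, KRT18 and KRT19, while WT1, MUC16, MSLN, WFDC2, EPCAM and CDH1 lay below that level on average. Of markers of other cell types, 2 of 14 leukocyte genes, 2 of 11 endothelial genes and 0 of 9 fibroblast and mesothelial genes reached that level. The endothelial gene CDH5 was brighter than PAX8, with means of 10.24 with cisplatin and 10.25 without. The mean level of the leukocyte markers was 4.73 to 4.84 in cisplatin cultures and 4.66 to 4.86 in untreated cultures. None of these other markers passed the test in either direction.

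With cisplatin, 311 genes rose (1.69% of all genes) and 970 fell (5.27%), and the p53 targets led the genes that rose while histone genes led those that fell. The test was the moderated test of limma in a model of 18 lines that shares 1 estimate of the spread per gene, with a threshold of 0.05 on the Benjamini-Hochberg adjusted p over all 18417 genes. Together 6.96% of genes passed, 3419 had an unadjusted p under 0.05, and the median size of a called change was 0.43. Only 24 of the called genes were at least 2-fold higher and 9 at least 2-fold lower. The groups did not overlap for 1527 genes above (8.29%) and 2455 genes below (13.3%). Counts of list members given below stand beside these shares of 1.69%, 5.27%, 8.29% and 13.3%.

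The excess of falls lay among bright genes. In the brighter 9209 genes the median change was -0.08, with 202 calls higher and 897 lower, while in the dimmer 9208 genes it was 0.04, with 109 higher and 73 lower. After quantile normalization of the arrays these medians were -0.01 and 0.00, and 476 genes were higher and 637 lower, so that 42.8% of calls were rises against 24.3% before it. With arrays centred on their medians the share of rises was 19.5%. The upper quartile of the arrays was 7.86, 7.88 and 7.93 in cisplatin cultures and 7.96, 7.97 and 7.88 in untreated cultures, and its part in the calls was not tested beyond this rescaling. Single cultures also moved the counts. Without untreated culture 1, 167 genes were higher and 348 lower, without untreated culture 2 the counts were 202 and 359, and without untreated culture 3 they were 338 and 1500. Leaving out cisplatin culture 1 gave 213 higher and 479 lower, and leaving out cisplatin culture 2 gave 173 and 446. A fit to the 6 arrays alone, with 4 residual degrees of freedom, called 85 higher and 64 lower, of which 74 and 60 were also called in the model of 18 lines.

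**Figure D1:**
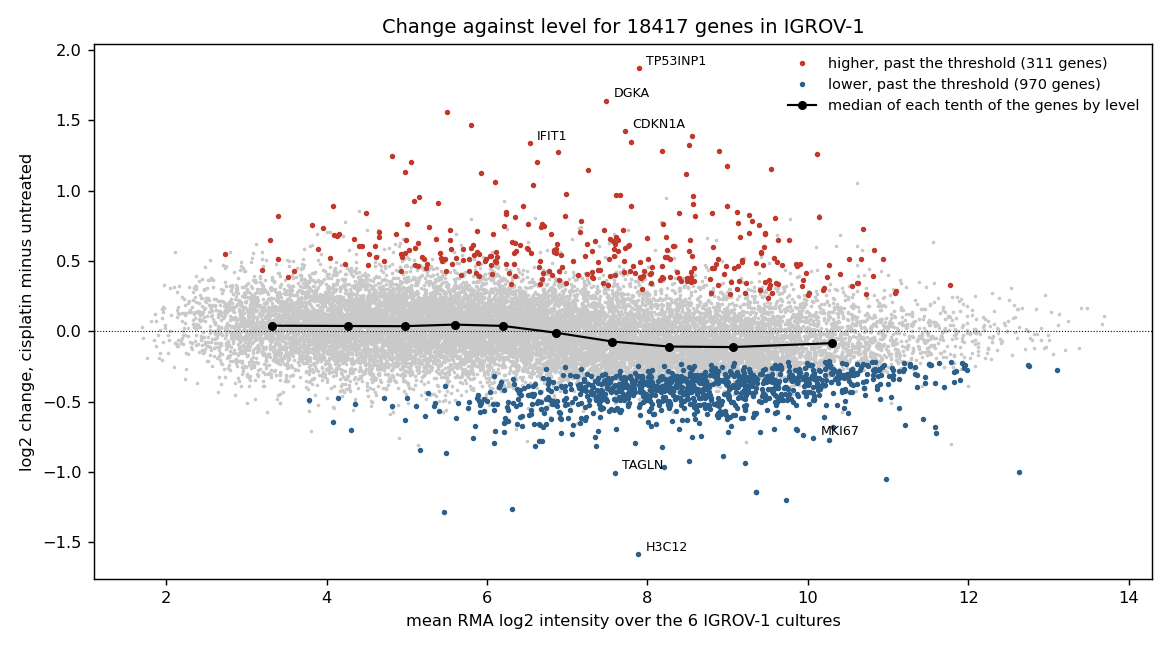
Change with cisplatin (vertical axis, log2) against the mean log2 intensity over the 6 IGROV-1 cultures (horizontal axis) for 18417 genes, with 311 genes past the threshold higher in red and 970 lower in blue. The black points are medians of 10 equal classes of genes by level, which lie slightly above 0 for dim genes and slightly below 0 for bright genes.

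The p53 targets rose as a group. Of 54 measured genes in 3 lists, 23 rose, 0 fell and 51 had a change above 0, with a median change of 0.38 beside -0.01 over all genes. For 36 of the 54 genes every cisplatin culture lay above every untreated culture, and for 1 gene, E2F7, every cisplatin culture lay below. Over all genes these shares were 8.29% and 13.3%. The same median in the other 17 lines ran from 0.08 to 0.61, with 0.35 in the middle, and 10 of these lines were below IGROV-1.

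Among the p53 targets that arrest the cell cycle or feed back on p53, 11 of 20 rose and 0 fell, with a median change of 0.56. TP53INP1, a nuclear and autophagic protein that enhances p53 activity, had 8.83, 8.76 and 8.91 in cisplatin cultures, against 7.07, 7.16 and 6.65 in untreated cultures. It showed the largest rise of all genes, 1.87 ± 0.24 (SE from the spread shared over the lines, n = 3 cultures in each arm, 3.66-fold, limma adjusted p = 4.29e-08). Every ± and standard error in the text and figures comes from that shared spread, not from the scatter of the IGROV-1 cultures alone. CDKN1A, the gene of the p21 inhibitor of cyclin-dependent kinases, had 8.34, 8.40 and 8.56 in cisplatin cultures, against 7.02, 6.98 and 7.03 in untreated cultures. The groups were far apart and the untreated cultures almost equal, and the rise was 1.42 ± 0.15 (limma adjusted p = 1.99e-11). SESN1, a stress-induced inhibitor of growth signalling, stood at 8.83, 8.73 and 8.92 with cisplatin and 7.53, 7.77 and 7.34 without, a rise of 1.28 ± 0.12.

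MDM2, the ubiquitin ligase that degrades p53, was already bright and rose less, with 11.03, 11.01 and 11.12 in cisplatin cultures, against 10.36, 10.41 and 10.20 in untreated cultures. Its rise was 0.73 ± 0.12 (limma adjusted p = 2.69e-05). PPM1D, a phosphatase that turns off the checkpoint, rose by 0.60 ± 0.10, and CCNG1, a cyclin that recruits a phosphatase to MDM2, by 0.58 ± 0.11. RPS27L rose by 0.72, BTG1, an antiproliferative gene, by 0.67, PHLDA3, an inhibitor of AKT, by 0.60, PLK3 by 0.53 and SESN2 by 0.39. The calls of PLK3 and SESN2 each failed when any 1 of the 6 cultures was left out, with adjusted p up to 0.123 for PLK3 without untreated culture 3 and 0.23 for SESN2 without untreated culture 1.

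Some well-known targets did not pass. PLK2, a kinase of the same family as PLK3, had 10.64, 10.73 and 10.87 in cisplatin cultures and 10.14, 10.08 and 9.96 in untreated cultures. Its groups were apart, but the standard error shared over the lines was 0.56 for a change of 0.69 (limma adjusted p = 0.583), while the fit to the 6 arrays alone called it (limma adjusted p = 0.0261). GADD45A, a growth-arrest gene, changed by 0.25 with groups that did not overlap, and GADD45B and SFN were at 0.01 and -0.09. E2F7, a repressor of E2F target genes that p53 induces in other cells, had 7.93, 7.87 and 7.99 with cisplatin and 8.43, 8.43 and 8.12 without. That change of -0.40 missed the threshold (limma adjusted p = 0.0567), while in the other 17 lines E2F7 changed by -0.37 to 1.28 with a median of 0.45.

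Of the p53 targets that act in apoptosis, 4 of 15 rose and 0 fell, and the median change was 0.30. FAS, a death receptor, had 7.33, 7.50 and 7.73 in cisplatin cultures, against 6.32, 6.21 and 6.19 in untreated cultures. The lowest cisplatin culture was a full log2 unit above the highest untreated one, and the rise was 1.28 ± 0.14 (limma adjusted p = 4.73e-10), higher than the change in each of the other 17 lines (-0.05 to 1.24). TP53I3, an oxidoreductase linked to reactive oxygen, had 7.303, 7.177 and 7.187 with cisplatin and 6.140, 5.999 and 5.907 without, a rise of 1.21 ± 0.08. It too was higher than in each other line (-0.22 to 0.99), and it had the smallest adjusted p among the genes of the lists, 2.78e-20 in limma.

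BAX, an effector that opens the mitochondrial outer membrane, rose by only 0.35 ± 0.10, from values of 9.54, 9.42 and 9.26 in cisplatin cultures and 9.09, 8.91 and 9.18 in untreated cultures. Its call failed without untreated culture 1 (adjusted p = 0.066), untreated culture 2 (0.217), cisplatin culture 1 (0.172) or cisplatin culture 2 (0.0819). TRIAP1, a small inhibitor of apoptosis, rose by 0.33 and failed without untreated culture 1 (0.281) or either of the first cisplatin cultures (0.05 and 0.146). The list count was then 2 without cisplatin culture 1, cisplatin culture 2 or untreated culture 1. PMAIP1, which encodes the BH3 protein NOXA, stood at 7.69, 7.73 and 7.78 with cisplatin and 7.17, 7.23 and 7.21 without, groups that are tight and apart, yet its shared standard error of 0.35 left it at an adjusted p of 0.458 in limma. The fit to the 6 arrays alone called PMAIP1 (limma adjusted p = 0.0474). BBC3, which encodes PUMA, changed by 0.27 and TNFRSF10B, a TRAIL receptor, by 0.07, both with overlapping groups.

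GDF15, a secreted stress cytokine and a common readout of p53, had 9.97, 9.81 and 10.17 in cisplatin cultures and 9.54, 9.86 and 9.31 in untreated cultures, with overlap. The change of 0.41 ± 0.23 did not pass (limma adjusted p = 0.338), and 15 of the other 17 lines had a larger change, up to 3.71. TRIM22 likewise had a smaller change in only 2 of the other 17 lines, at 0.30 in IGROV-1 beside a median of 0.81 in the other lines.

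The p53 targets of repair and metabolism gave 8 rises and 0 falls among 19 genes, with a median change of 0.38. DDB2, a sensor of ultraviolet and platinum lesions in nucleotide excision repair, had 9.47, 9.57 and 9.57 in cisplatin cultures, against 8.36, 8.23 and 8.18 in untreated cultures. Its rise of 1.28 ± 0.12 (limma adjusted p = 3.02e-13) was above that of each of the other 17 lines, which ran from 0.21 to 1.21. XPC, the damage sensor that acts beside DDB2, rose by 0.58 ± 0.13. POLH, a polymerase that copies past platinum adducts, had 8.37, 8.53 and 8.65 with cisplatin and 8.01, 7.98 and 7.96 without, a rise of 0.53 ± 0.09. CMBL, a hydrolase, rose by 0.97, DRAM1, a lysosomal inducer of autophagy, by 0.89 and ACER2, a ceramidase of the Golgi, by 0.84. RRM2B, the p53-induced subunit of ribonucleotide reductase, was at 0.37 and just missed the threshold (limma adjusted p = 0.0556), which it passed after quantile normalization (0.00385).

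**Figure D2:**
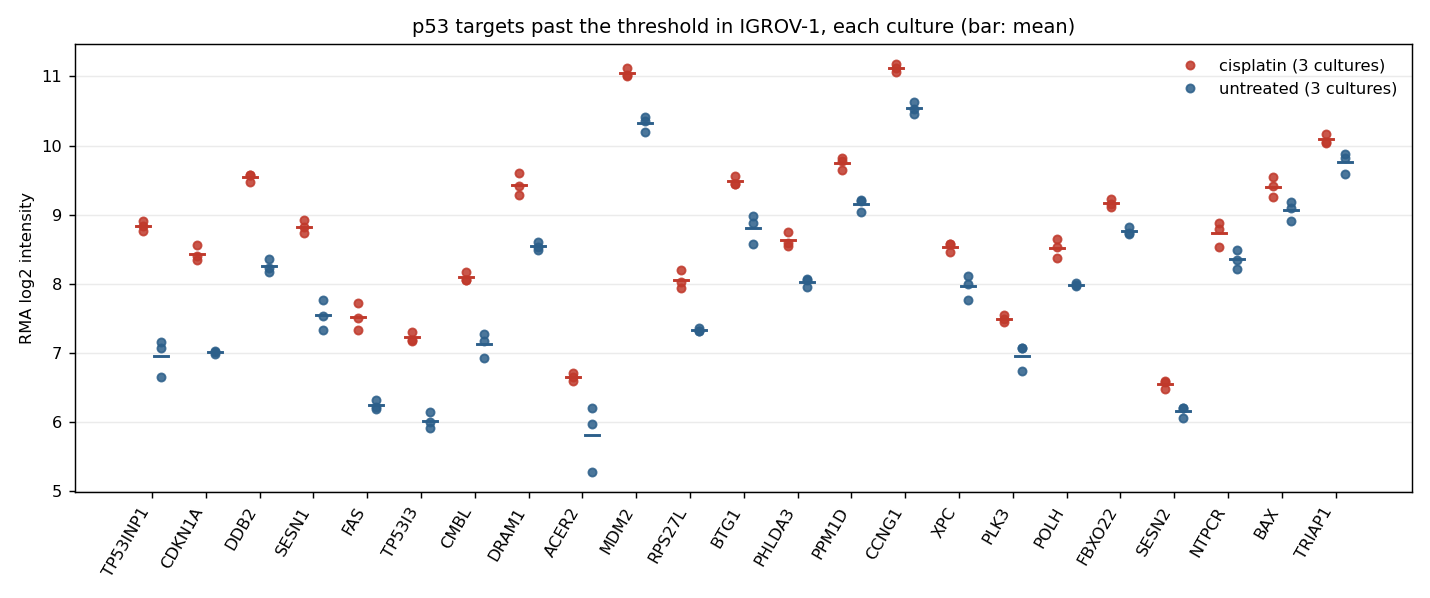
RMA log2 intensity (vertical axis) of the 23 p53 targets past the threshold in each of 3 cisplatin cultures (red, left of each pair) and 3 untreated cultures (blue, right of each pair), with a bar at each mean. For each gene the red points lie above the blue ones, and TP53INP1, CDKN1A, DDB2, SESN1, FAS and TP53I3 have the widest gaps.

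Histone genes that are expressed with DNA replication made up the largest block of falls. Of 48 measured, 25 fell and 1 rose, the median change was -0.61, and in 33 genes every cisplatin culture lay below every untreated culture. Over all genes 5.27% fell and 13.3% had groups apart in that direction. All 5 measured H1 genes fell, as did 8 of 11 H2A genes, 5 of 14 H2B genes, 3 of 8 H3 genes and 4 of 10 H4 genes. The list median in the other 17 lines ran from -1.40 to 0.09 and was lower than that of IGROV-1 in 6 of them. Histone copies are nearly identical, so probes may read several of them and their separate values are uncertain.

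H3C12 had 7.22, 6.91 and 7.15 in cisplatin cultures, against 8.67, 8.92 and 8.45 in untreated cultures. It fell most of all genes, by 1.59 ± 0.19 on the log2 scale (limma adjusted p = 1.98e-09). H2AC4 had 9.09, 9.04 and 9.25 with cisplatin and 10.23, 10.33 and 10.42 without, a change of -1.202 ± 0.18. H2BC14, one of the brightest histone genes, stood at 12.12, 12.10 and 12.19 with cisplatin and 13.11, 13.14 and 13.16 without, a change of -1.002 ± 0.16 with replicates that hardly differed. H1-5, a linker histone, changed by -1.05 ± 0.27 but missed the threshold without cisplatin culture 2 (adjusted p = 0.0567). H4C14 and H4C15 carried the same values on every array and changed by -1.14.

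H2BC12 went the other way. It had 9.53, 9.58 and 9.64 in cisplatin cultures, against 8.24, 8.42 and 8.57 in untreated cultures, a rise of 1.17 ± 0.24 (limma adjusted p = 0.000371). In the other 17 lines H2BC12 changed by -1.40 to 0.89, so its change in IGROV-1 was above them all, and the difference from their mean was 1.28 ± 0.24 (limma adjusted p = 0.000371).

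**Figure D3:**
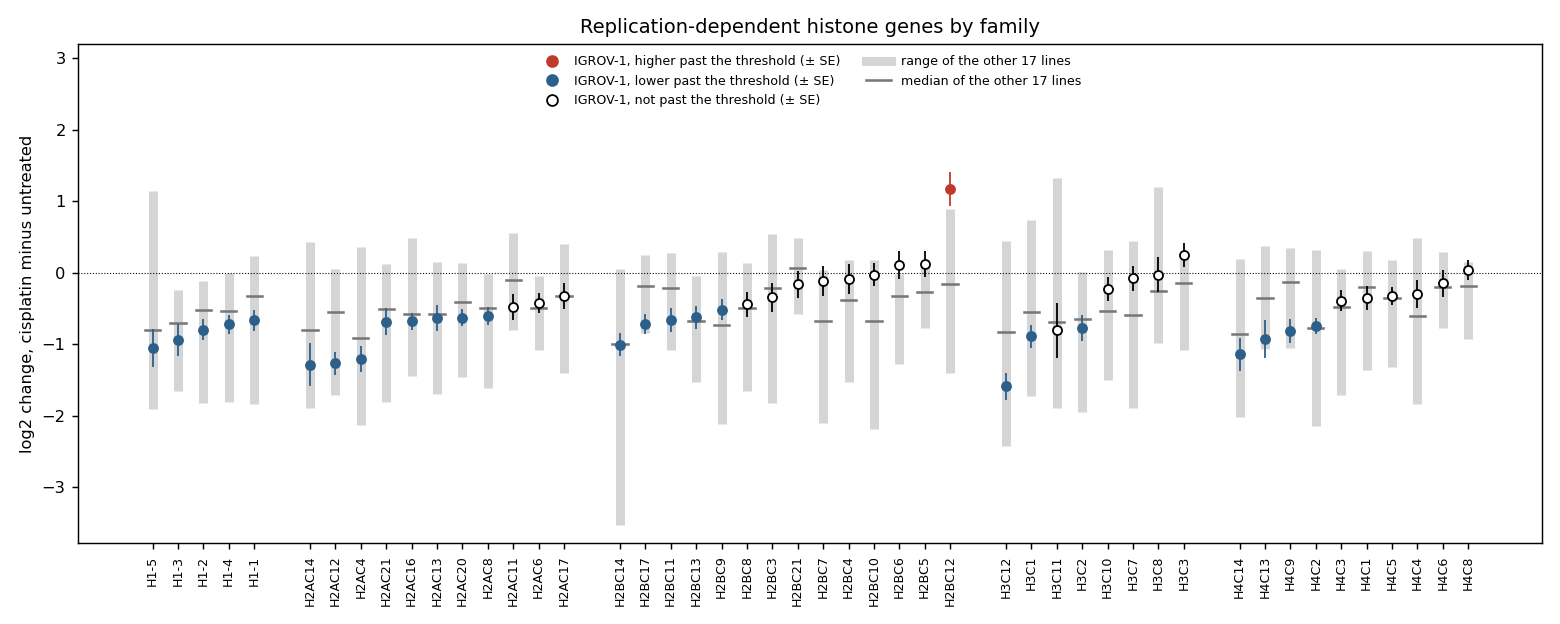
Log2 change with cisplatin (vertical axis) of replication-dependent histone genes, grouped by family along the horizontal axis. Points with standard errors are IGROV-1, filled where past the threshold, and grey bars are the range of the other 17 lines with their median. Most filled points are blue and below 0, and H2BC12 is the 1 red point, above the range of the other lines.

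Promoters of 4 histone genes are shown because H2BC14 fell and H2BC12 rose while both hold CCAAT and the octamer, and H2BC12 also holds TATAAA. Each is the 100 bases before the annotated start in RefSeq, build GRCh38.p14, written 5′ to 3′ on the gene's strand, and capitals mark CCAAT, the core promoter word TATAAA and ATTTGCAT, the octamer found in H2B promoters, searched on both strands. They lie at chr6:27814922-27815021 (plus strand) for H2BC14, chr6:27146859-27146958 (minus strand) for H2BC12, chr6:26020351-26020450 (plus strand) for H3C1 and chr6:26234988-26235087 (minus strand) for H1-3.
H2BC14: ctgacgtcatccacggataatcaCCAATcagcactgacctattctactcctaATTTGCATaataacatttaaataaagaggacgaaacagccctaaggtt
H2BC12: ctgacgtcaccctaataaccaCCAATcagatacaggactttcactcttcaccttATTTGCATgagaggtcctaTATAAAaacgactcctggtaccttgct
H3C1: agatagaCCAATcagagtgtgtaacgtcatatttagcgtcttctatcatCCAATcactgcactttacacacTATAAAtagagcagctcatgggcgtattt
H1-3: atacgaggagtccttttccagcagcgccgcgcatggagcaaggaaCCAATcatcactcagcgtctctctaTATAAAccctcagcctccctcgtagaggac
H3C1 changed by -0.89 and H1-3 by -0.94, and both passed. In the 250 bases before the start, CCAAT was found for 38 of 43 histone genes with a RefSeq promoter (88.4%) and for 34.4% of 14239 measured genes. TATAAA was found for 69.8% of the histone genes and 8.6% of all. ATTTGCAT was found for 12 of 14 H2B genes (85.7%) and 1.6% of all. These matches describe letters and were not tied to binding of a factor.

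Of 39 measured genes of DNA replication, 19 fell and 0 rose, with a median change of -0.33, and in 28 genes every cisplatin culture lay below every untreated culture. The shares over all genes were 5.27% for falls and 13.3% for groups apart below. After quantile normalization 15 fell and the median was -0.23. The fit to the 6 arrays alone called 1. In the other 17 lines the list median ran from -0.84 to 0.65, with 0.03 in the middle. Of the list, 15 genes had a more negative change in IGROV-1 than the mean of the other lines by the test of the difference, a call made for 3.27% of all genes.

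E2F8, a repressor of E2F targets expressed in S phase, had 6.8445, 6.9989 and 6.9998 in cisplatin cultures, against 7.91, 7.75 and 7.65 in untreated cultures. It fell by 0.82 ± 0.11 on the log2 scale (limma adjusted p = 1.4e-07). MCM5, a subunit of the replicative helicase, had 9.82, 9.92 and 9.95 with cisplatin and 10.67, 10.66 and 10.19 without, so untreated culture 3 lay closest to the treated ones. Its change was -0.61 ± 0.13. POLA1, the catalytic subunit that primes DNA synthesis, changed by -0.58, CDC45, another helicase component, by -0.56, CDC25A, a phosphatase that activates cyclin-dependent kinases, by -0.47, FEN1, which trims Okazaki fragments, by -0.44, and MCM6 by -0.41.

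CCNE2, cyclin E2, changed by -0.43 ± 0.13 and passed, but not without untreated culture 1 (adjusted p = 0.0821), untreated culture 2 (0.102), cisplatin culture 1 (0.125) or cisplatin culture 2 (0.0893), nor after quantile normalization (0.144). In the other 17 lines it changed by -1.46 to 2.64. PCNA, the sliding clamp and a target of p53 as well as of E2F, did not follow the list, with 11.45, 11.55 and 11.59 in cisplatin cultures and 11.38, 11.52 and 11.57 in untreated cultures. Those groups overlapped and the change was 0.04. TYMS, thymidylate synthase, was at -0.03.

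Mitotic genes fell in part. Of 41 measured, 17 fell and 0 rose, with a median change of -0.24. The count depended on single cultures, with 8 falls without cisplatin culture 1, cisplatin culture 2 or untreated culture 1 and 9 without untreated culture 2. It was 11 after quantile normalization and 0 in the fit to the 6 arrays alone. The list median of the other lines ran from -0.52 to 0.49. In IGROV-1, 8 genes were more negative than the mean of those lines, beside 3.27% of all genes.

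PLK4, the kinase that starts centriole duplication, had 6.47, 6.53 and 6.68 in cisplatin cultures, against 7.41, 7.46 and 6.99 in untreated cultures, a change of -0.72 ± 0.10 (limma adjusted p = 8.27e-07). KIF4A, a chromosome-associated kinesin, had 9.24, 9.27 and 9.46 with cisplatin and 9.94, 10.04 and 9.70 without. It fell by 0.57 ± 0.09 on the log2 scale, below the change in each other line (-0.43 to 0.76). KIF14, a kinesin of cytokinesis, changed by -0.55, BUB1B, a spindle checkpoint kinase, by -0.46, KIF11, the motor that separates spindle poles, by -0.45 and PRC1, which bundles the central spindle, by -0.44. MKI67, the proliferation marker Ki-67, was outside the lists and chosen after its values were seen, with 9.67, 9.64 and 9.75 with cisplatin and 10.53, 10.56 and 10.24 without. Its change of -0.76 ± 0.09 lay below that of each other line (-0.76 to 0.28 after rounding).

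CCNB1, cyclin B1, had 11.81, 11.83 and 12.01 in cisplatin cultures and 11.953, 11.924 and 11.999 in untreated cultures. CDK1 was at 0.08 and CCNB2 at 0.03, and none of the 3 passed. PLK1, the polo kinase of mitosis, changed by -0.35 ± 0.10 and passed (limma adjusted p = 0.0128), but not without untreated culture 1 (0.177), untreated culture 2 (0.0541), cisplatin culture 1 (0.0804) or cisplatin culture 2 (0.0594).

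Upstream sequences of a pair of replication genes and a pair of mitotic genes that fell show the words known for each class, E2F sites in the first pair and CCAAT followed by the cell-cycle homology word in the second. Each is again the 100 bases before the RefSeq start in GRCh38.p14, at chr3:48188418-48188517 (minus strand) for CDC25A, chr2:135876444-135876543 (minus strand) for MCM6, chr15:90994536-90994635 (minus strand) for PRC1 and chrX:70290004-70290103 (plus strand) for KIF4A. Capitals mark TTTGGCGC, TTTCCCGC, TTTGCCGC or TTTCGCGC on either strand in CDC25A and MCM6, where 2 overlapping matches join in MCM6, and CCAAT and TTTGAA or TTCGAA on either strand in PRC1 and KIF4A.
CDC25A: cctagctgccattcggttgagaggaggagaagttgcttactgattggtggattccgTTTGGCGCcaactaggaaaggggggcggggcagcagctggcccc
MCM6: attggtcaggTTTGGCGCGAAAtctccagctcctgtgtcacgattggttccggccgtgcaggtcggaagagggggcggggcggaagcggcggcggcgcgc
PRC1: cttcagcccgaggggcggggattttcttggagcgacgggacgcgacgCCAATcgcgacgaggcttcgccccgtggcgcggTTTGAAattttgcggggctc
KIF4A: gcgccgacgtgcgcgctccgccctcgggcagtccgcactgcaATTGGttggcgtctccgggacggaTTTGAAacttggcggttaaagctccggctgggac
In the 250 bases before the start, an E2F word was found for 15 of 32 replication genes (46.9%), 0 of 34 mitotic genes and 3.8% of all measured genes. A cell-cycle homology word was found for 16 of 34 mitotic genes (47.1%), 2 of 32 replication genes and 11.8% of all, and CCAAT for 26 of 34 mitotic genes (76.5%). The p53 consensus with up to 2 mismatches was found for 1 of 44 p53 targets, AEN, and 0.2% of all measured genes, and nothing about p53 follows from its absence in so short a window.

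Of 25 Fanconi anemia and homologous recombination genes, 8 fell and 0 rose, with a median change of -0.25. Beside 3.27% of all genes, 8 of the list were more negative than the mean of the other lines. The count of falls was 4 without cisplatin culture 1 or untreated culture 1, 3 without untreated culture 2, 5 after quantile normalization and 1 in the fit to the 6 arrays alone. EXO1, a nuclease of resection and mismatch repair, had 9.90, 9.93 and 10.09 in cisplatin cultures, against 10.77, 10.78 and 10.42 in untreated cultures. It fell by 0.68 ± 0.10 on the log2 scale (limma adjusted p = 6.37e-07), while its median change in the other lines was 0.24.

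BRCA1, the tumour suppressor of homologous recombination, had 7.52, 7.54 and 7.59 with cisplatin and 7.97, 7.96 and 7.88 without, tight groups with a change of -0.39 ± 0.10 (limma adjusted p = 0.00597). FANCI, part of the complex that is ubiquitinated at crosslinks, changed by -0.37 ± 0.08. FANCM, which binds stalled forks, changed by -0.66 and failed without untreated culture 2 (adjusted p = 0.0729). BARD1, the partner of BRCA1, changed by -0.40 with overlapping groups and failed without untreated culture 1 (0.107), untreated culture 2 (0.176), cisplatin culture 1 (0.0605) or cisplatin culture 2 (0.0558).

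Of 18 damage checkpoint genes 6 fell and 0 rose, and the count was 2 without cisplatin culture 1 or untreated culture 2, 3 without cisplatin culture 2, 4 after quantile normalization and 1 in the fit to the 6 arrays alone. TOPBP1, which activates the kinase ATR, had 9.36, 9.38 and 9.48 in cisplatin cultures and 9.83, 9.81 and 9.80 in untreated cultures, a change of -0.40 ± 0.08. MDC1, a scaffold at DNA breaks, changed by -0.48 ± 0.12. CHEK2 was at 0.15, and ATM and ATR themselves were at -0.21 and -0.18 without passing.

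None of 16 nucleotide excision repair genes passed, in a list without DDB2 and XPC, which rose and were counted as p53 targets. Of the 16 genes 3 fell when untreated culture 3 was left out. ERCC1, the nuclease subunit often measured in platinum-treated tumours, was at -0.06 with overlapping groups. None of 5 mismatch repair genes passed either, with MSH6 at -0.02. Of 8 translesion genes only RAD18, the ligase that modifies PCNA, fell, by 0.35 on the log2 scale, and it failed without untreated culture 2 (adjusted p = 0.065), cisplatin culture 1 (0.0511) or cisplatin culture 2 (0.0563). POLH, which rose, was counted as a p53 target and is not among these 8 genes. The translesion median was -0.24 in IGROV-1 (-0.17 after quantile normalization) and -0.18 to 0.35 in the other 17 lines.

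Of 20 measured ribosome biogenesis genes, 10 fell and 0 rose, with a median change of -0.35, beside -0.32 to 0.11 in the other 17 lines. After quantile normalization the median in IGROV-1 was -0.26, and the medians of the other lines under that scaling were not computed. The count was 5 without cisplatin culture 1 or untreated culture 2, 6 without cisplatin culture 2, 3 without untreated culture 1, 7 after quantile normalization and 1 in the fit to the 6 arrays alone. UTP20, a component of the small-subunit processome, had 8.74, 8.61 and 8.78 in cisplatin cultures, against 9.47, 9.45 and 9.23 in untreated cultures, a change of -0.68 ± 0.11 (limma adjusted p = 1.67e-05). UTP4, of the same complex, changed by -0.46 ± 0.09 and lay below each other line (-0.33 to 0.28), and DDX21, a nucleolar helicase, changed by -0.37 ± 0.08. NPM1 and FBL, abundant nucleolar proteins, were at 0.02 and -0.07. POLR3G, a subunit of RNA polymerase III, had 7.70, 7.66 and 7.79 with cisplatin and 8.72, 8.84 and 8.48 without. Its change of -0.96 ± 0.28 failed without untreated culture 1 (adjusted p = 0.092), untreated culture 2 (0.117), cisplatin culture 1 (0.0688) or cisplatin culture 2 (0.0813) and after quantile normalization (0.0668). In the fit to the 6 arrays alone POLR3G passed (limma adjusted p = 0.00733).

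Apart from the p53 targets, few regulators of apoptosis passed. None of 11 death receptor and ligand genes passed, and CFLAR, an inhibitor of caspase-8, was at 0.42. Among 8 pro-apoptotic BCL2 family genes BIK rose by 0.49 ± 0.16, but its call failed when any 1 of the 6 cultures was left out (adjusted p up to 0.195, without untreated culture 1). None of 6 anti-apoptotic genes passed, and their median of -0.18 was the lowest of the 18 lines. After quantile normalization it was -0.14 in IGROV-1, and the other lines were not computed under that scaling. MCL1, a short-lived survival protein, had 10.54, 10.52 and 10.82 in cisplatin cultures and 10.92, 11.01 and 10.65 in untreated cultures. Those groups overlapped and the change of -0.24 did not pass (limma adjusted p = 0.1), but its difference from the other lines of -0.34 did (limma adjusted p = 0.0192), since MCL1 changed by -0.03 to 0.29 there.

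Within IGROV-1, calls among immediate early and NF-kB genes were few and near the share over all genes, 1.69% higher and 5.27% lower. Of 31 immediate early genes 0 rose and 3 fell, with a median change of -0.09. By the test of the difference, 9 had a change more negative than the mean of the other lines, a call made for 3.27% of all genes. JUN, a subunit of AP-1, had 5.99, 6.20 and 6.15 in cisplatin cultures and 7.06, 7.01 and 6.60 in untreated cultures. The groups were apart and the change was -0.78 ± 0.29, which did not pass (limma adjusted p = 0.0948) but did in the fit to the 6 arrays alone (0.0378), while the difference from the mean of the other lines, -1.06, did (limma adjusted p = 0.0267). JUN changed by -0.19 to 1.36 in the other lines.

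The genes that fell were SPRY2, KLF4 and JUNB, at -0.64, -0.45 and -0.42. The count of 3 was 1 without cisplatin culture 1, 2 without cisplatin culture 3, where 1 other gene rose, and 0 without cisplatin culture 2, untreated culture 1 or untreated culture 2. SPRY2, an inhibitor of growth factor signalling, also failed after quantile normalization (adjusted p = 0.0661). Of 27 NF-kB genes 0 rose, and the transcription factor genes NFKB1 and RELA fell by 0.31 and 0.29 on the log2 scale. Neither passed without cisplatin culture 1, cisplatin culture 2, untreated culture 1 or untreated culture 2 (adjusted p = 0.052 to 0.207), nor after quantile normalization (0.135 for both). TNFAIP3, an inhibitor of NF-kB signalling, was at -0.28 ± 0.27 with overlapping groups and did not pass, beside -0.27 to 1.87 in the other lines.

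Some interferon-stimulated and antigen presentation genes rose without the rest of their lists. Of 34 interferon-stimulated genes 4 rose and 0 fell, with a median change of 0.09. IFIT1, which binds foreign RNA ends, had 7.25, 7.09 and 7.26 in cisplatin cultures, against 5.85, 5.89 and 5.85 in untreated cultures. The replicates were close and the rise was 1.34 ± 0.22 (limma adjusted p = 1.13e-05), above each other line (-0.44 to 1.32). IFI6 and IFI35 rose by 0.57 and 0.53, and HERC6 by 0.60 with groups that overlapped, a call that failed without untreated culture 2 (adjusted p = 0.144) or cisplatin culture 2 (0.0654). Common markers of the response did not pass, with ISG15 at 0.05, MX1 at 0.14 and OAS1 at 0.12.

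MR1, which presents vitamin metabolites to T cells, had 6.29, 6.66 and 6.65 in cisplatin cultures, against 5.19, 5.22 and 4.78 in untreated cultures. Its rise of 1.47 ± 0.14 (limma adjusted p = 3.53e-12) was above each other line (0.12 to 1.25). ERAP2, a peptide trimming enzyme, rose by 0.75 ± 0.19 and B2M, the light chain of class I molecules, by 0.47 ± 0.13, though B2M failed without untreated culture 1 (adjusted p = 0.243), cisplatin culture 2 (0.0671) or cisplatin culture 3 (0.0667). TAP2, a peptide transporter, was at -0.55 with overlapping groups and failed without untreated culture 1 (0.0885), untreated culture 2 (0.0793) or cisplatin culture 1 (0.0706). Of 14 measured leukocyte markers 0 passed, and 1 rose when untreated culture 3 was left out.

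Further large rises lay outside the lists. DGKA, a lipid kinase that consumes diacylglycerol, had 8.22, 8.32 and 8.38 in cisplatin cultures, against 6.79, 6.90 and 6.32 in untreated cultures, a rise of 1.64 ± 0.21 (limma adjusted p = 3.45e-08). C1R, a protease that starts the complement cascade, had 9.17, 9.28 and 9.28 with cisplatin and 7.95, 7.86 and 7.76 without, a rise of 1.39 ± 0.17. Both were above each other line, where DGKA reached at most 1.199 and C1R at most 1.06. CPA4, a carboxypeptidase, rose by 1.32 and CLTRN, a membrane protein that carries amino acid transporters, by 1.26.

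APOBEC3B, a cytidine deaminase that edits DNA, had 10.07, 10.24 and 10.03 in cisplatin cultures and 8.77, 8.90 and 9.21 in untreated cultures. Its rise of 1.15 ± 0.36 passed (limma adjusted p = 0.0353) but failed without untreated culture 1 (0.174), untreated culture 2 (0.131), cisplatin culture 1 (0.0919), cisplatin culture 2 (0.133) or cisplatin culture 3 (0.0585). The neighbouring family members APOBEC3C and APOBEC3H, chosen after their values were seen, rose by 1.12 ± 0.18 and 1.204 ± 0.19. APOBEC3D, APOBEC3F and APOBEC3G, at 0.45, 0.55 and 0.07, did not pass. Near-identical sequence in this family could share signal between probe sets.

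Genes that move platinum and copper mostly did not pass. Of 22 measured, 1 rose and 4 fell, with a median change of -0.20. SLC22A2, the organic cation transporter OCT2 that takes up cisplatin in kidney, had 9.10, 8.99 and 9.60 in cisplatin cultures, against 8.56, 8.68 and 7.92 in untreated cultures. The cultures were spread but apart, and the rise of 0.84 ± 0.19 (limma adjusted p = 0.00211) was above each other line (-0.27 to 0.38). SLC31A1, the copper importer CTR1, had 9.59, 9.35 and 9.71 with cisplatin and 10.06, 10.04 and 9.77 without, a change of -0.41 ± 0.12 that failed without untreated culture 1 (adjusted p = 0.151), untreated culture 2 (0.135), cisplatin culture 1 (0.0527) or cisplatin culture 2 (0.217). ATP7B, a copper exporter, was at -0.03.

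LRRC8B, LRRC8E and LRRC8C, subunits of a volume-regulated anion channel that can pass cisplatin, fell by 0.57, 0.52 and 0.39 on the log2 scale, while the essential subunit LRRC8A was at -0.26 and LRRC8D at -0.05. The count of 4 falls in this list was 0 without cisplatin culture 1 or untreated culture 1, 1 without cisplatin culture 2 or untreated culture 2, 2 after quantile normalization and 0 in the fit to the 6 arrays alone. Metallothionein genes, which encode metal-binding proteins, were mostly below 0 without passing, with MT1X at -0.58 (limma adjusted p = 0.0668) and MT2A at -0.39.

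Targets of NRF2, the regulator of antioxidant genes, had the highest median of the 18 lines, 0.14, with 3 of 24 genes past the threshold. After quantile normalization the median was 0.17 in IGROV-1, and the other lines were not computed under that scaling. GPX2, a glutathione peroxidase, rose by 0.72, AKR1B10 by 0.68 and AKR1C1, both aldo-keto reductases, by 0.66. Each failed without at least 1 culture, GPX2 without cisplatin culture 2 (adjusted p = 0.0806), AKR1C1 without untreated culture 1 (0.11) and AKR1B10 without any of 5 cultures (up to 0.274, without untreated culture 2). NQO1, the best known target, had 9.49, 9.55 and 9.62 in cisplatin cultures and 9.30, 9.50 and 9.33 in untreated cultures. That change of 0.18 did not pass, but it did after quantile normalization (limma adjusted p = 0.0232), where 5 genes of the list rose. It exceeded the mean of the other lines by 0.45 (limma adjusted p = 0.00141), where NQO1 changed by -0.71 to 0.08.

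Amino acid and stress genes split. Of 26 genes of the integrated stress and unfolded protein responses 3 rose and 3 fell. DDIT4, an inhibitor of the growth kinase mTOR, had 9.69, 9.76 and 9.87 in cisplatin cultures, against 9.09, 9.20 and 8.75 in untreated cultures, a rise of 0.76 ± 0.16. Enzymes of serine synthesis moved apart, with PSAT1 higher by 0.52 ± 0.12 and PHGDH at -0.69 ± 0.12. ATF4, the transcription factor of this response, changed by -0.39 ± 0.09 and its target ASNS, asparagine synthetase, by -0.53 ± 0.11. CEBPB rose by 0.38 but failed without untreated culture 2 (adjusted p = 0.195), cisplatin culture 1 (0.0804) or cisplatin culture 2 (0.0651), and chaperones such as HSPA5 at -0.01 did not pass.

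Smaller lists gave few calls. Of 16 cholesterol genes 2 rose and 4 fell around a median of -0.01. After quantile normalization the split turned to 4 higher and 2 lower with a median of 0.04, in the fit to the 6 arrays alone it was 0 and 0, without untreated culture 1 it was 1 and 1, and without untreated culture 2 it was 1 and 0. It was 1 and 2 without cisplatin culture 1, 1 and 3 without cisplatin culture 2, and 0 and 4 without cisplatin culture 3 or untreated culture 3. INSIG1, a sterol sensor, had the largest change, -0.42, which failed without untreated culture 2 (adjusted p = 0.065). Of 15 lysosome genes 1 passed, the protease gene CTSL, at 0.31, and it failed without untreated culture 1 (0.131), untreated culture 2 (0.0826), cisplatin culture 1 (0.0706) or cisplatin culture 3 (0.139). None of 17 secreted factors of senescence passed. Of 16 TGF-beta and BMP genes only TGFB1, the ligand, rose, by 0.71 ± 0.15, with dim levels of 4.94, 4.94 and 5.13 in cisplatin cultures and 4.41, 4.00 and 4.47 in untreated cultures. Of 10 housekeeping genes the 1 that passed was B2M.

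Of the adhesion and contractile genes, CDH1 rose and CDH2 and TAGLN fell. CDH1, E-cadherin, had 6.50, 6.70 and 6.54 in cisplatin cultures, against 5.79, 5.92 and 5.80 in untreated cultures, a rise of 0.75 ± 0.15 (limma adjusted p = 0.000326) above each other line (-0.35 to 0.69). CDH2, N-cadherin, had 6.11, 6.20 and 6.46 with cisplatin and 7.05, 7.10 and 6.97 without. It changed by -0.78 ± 0.22 but failed without cisplatin culture 1 (adjusted p = 0.096), cisplatin culture 2 (0.0774), untreated culture 1 (0.0759) or untreated culture 2 (0.0839). The fit to the 6 arrays alone called CDH2 (limma adjusted p = 0.0198). TAGLN, an actin-binding protein of contractile cells, had 7.14, 7.07 and 7.06 with cisplatin and 8.20, 7.95 and 8.14 without, a change of -1.01 ± 0.17.

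The rest of both lists did not follow. Of 23 epithelial genes 2 rose, the other being RAB25 with a change of 0.48, overlapping groups and an adjusted p of 0.354 without untreated culture 2, and of 24 mesenchymal genes 2 fell. EPCAM, an epithelial adhesion protein, had 4.30, 5.24 and 5.05 in cisplatin cultures and 4.69, 3.64 and 4.09 in untreated cultures, a scattered dim signal. VIM, vimentin, stood at 8.58, 8.48 and 8.83 with cisplatin and 8.64, 8.67 and 8.60 without, and its change was -0.01. FOLR1, the folate receptor of ovarian carcinoma, rose by 0.69 ± 0.20, and its call failed without untreated culture 1 (adjusted p = 0.0895), untreated culture 3 (0.0785), cisplatin culture 1 (0.0508), cisplatin culture 2 (0.0665) or cisplatin culture 3 (0.0592).

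**Figure D4:**
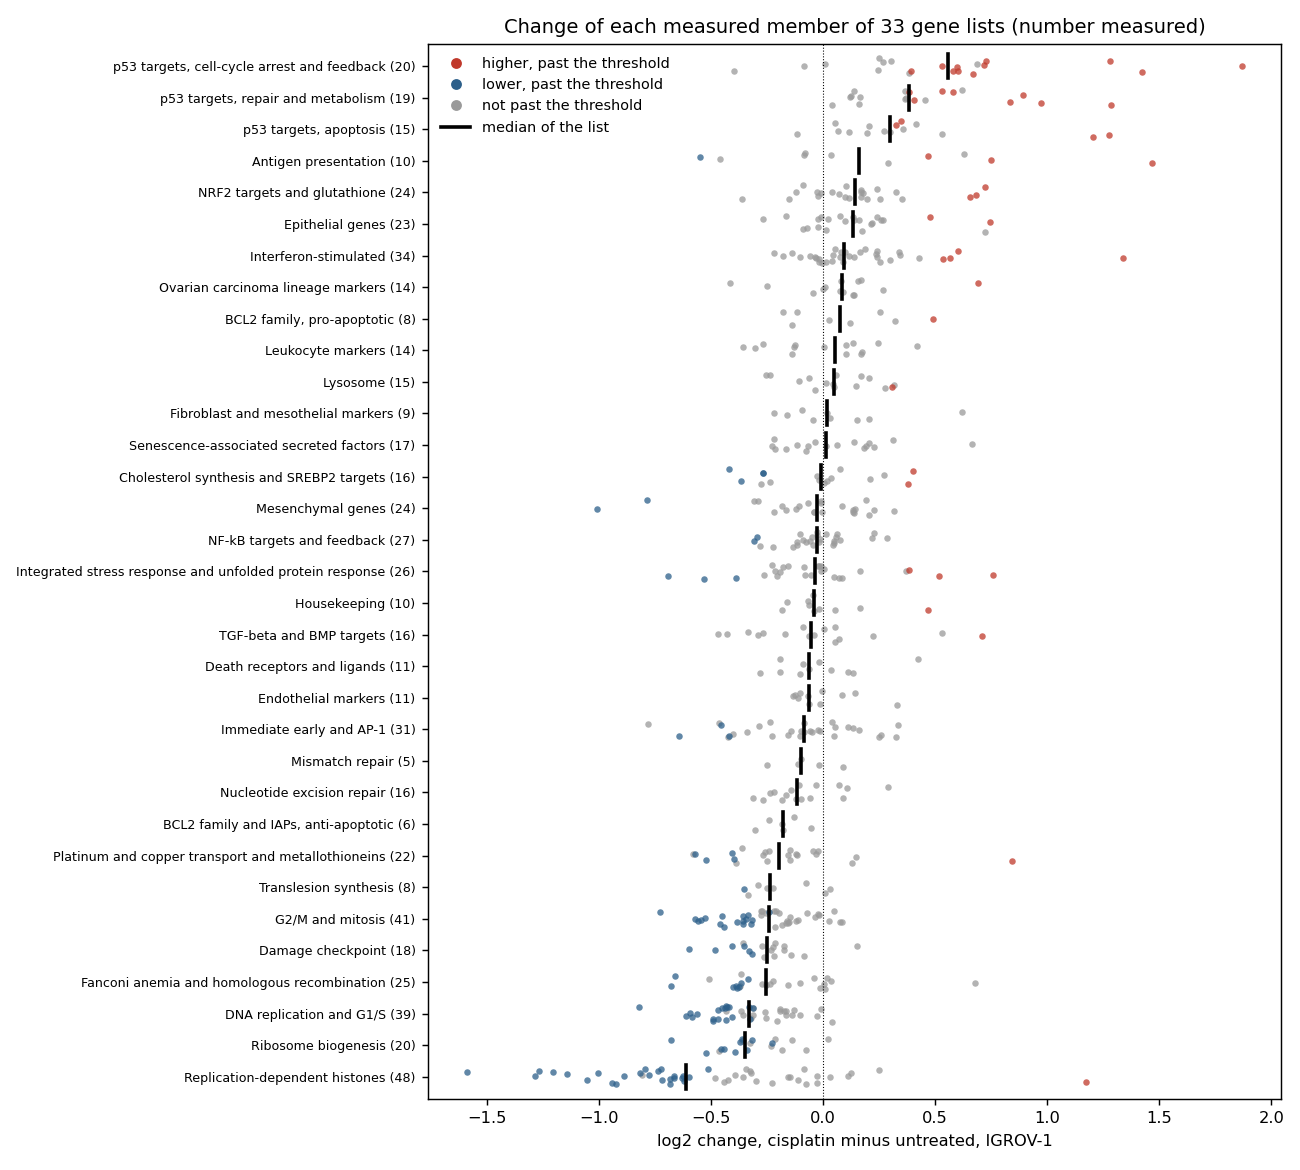
Log2 change with cisplatin (horizontal axis) of each measured member of 33 gene lists (rows, ordered by median), with genes past the threshold in red (higher) or blue (lower), others in grey, and a black bar at each list's median. The 3 p53 lists are at the top, and histone, ribosome biogenesis and replication genes at the bottom.

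Of 20 measured copies of the imprinted nucleolar RNA SNORD116, 5 rose and 0 fell, beside 1.69% and 5.27% of all genes. Their median change was 0.42. SNORD116-21 had 8.47, 8.37 and 8.57 in cisplatin cultures, against 6.85, 6.90 and 7.63 in untreated cultures. Untreated culture 3 lay between the other groups, and the rise was 1.35 ± 0.30 (limma adjusted p = 0.00138). SNORD116-24, SNORD116-1, SNORD116-15 and SNORD116-14, chosen after their values were seen, rose by 0.97, 0.89, 0.81 and 0.77. The copies share sequence, and other lines changed by -1.49 to 1.26 for SNORD116-21.

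MIR302B and MIR302A, neighbours in a cluster known from pluripotent stem cells, also rose. The mature 3p forms share the seed, bases 2 to 8, shown in capitals as RefSeq gives them for build GRCh38.p14.
hsa-miR-302b-3p: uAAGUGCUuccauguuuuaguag
hsa-miR-302a-3p: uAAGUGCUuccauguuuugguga
MIR302B had 6.96, 7.20 and 7.10 in cisplatin cultures, against 6.18, 5.79 and 6.18 in untreated cultures, a rise of 1.04 ± 0.25 (limma adjusted p = 0.00334). MIR302A, chosen after its values were seen, rose by 0.76 ± 0.23 but failed without untreated culture 1 (adjusted p = 0.112), untreated culture 2 (0.177), cisplatin culture 2 (0.0611) or cisplatin culture 3 (0.149). The probe sets are annotated to the genes, and the array does not show whether mature or precursor RNA was read. POU5F1B, a retrogene copy of the stem cell factor OCT4, had 7.55, 8.02 and 7.93 with cisplatin and 6.77, 6.49 and 6.80 without, a rise of 1.14 ± 0.22 beside -0.52 to 0.58 in the other lines.

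Gene length gave a mixed picture. The median change was 0.01 for genes under 10 kb and -0.01 for those of 300 kb and more, and 2.8% and 5.21% of these classes fell. Between them, 4.93% of genes of 10 to 30 kb, 7.59% of 30 to 100 kb and 6.52% of 100 to 300 kb fell. Among genes whose higher arm was at least at the level of the median gene, the medians were -0.03 and -0.11 for the shortest and longest class, and 6.36% and 13.22% fell. In the classes between, by increasing length, 8.97%, 12.21% and 10.89% of these brighter genes fell. The longest class held 227 of them. Of long genes chosen after values were seen, SCFD2 had 7.61, 7.74 and 7.77 in cisplatin cultures and 8.54, 8.41 and 8.19 in untreated cultures, a change of -0.67 ± 0.10. STAG1, a cohesin subunit, changed by -0.72 ± 0.11 and QTMAN, a transfer RNA modifying enzyme, by -0.66 ± 0.14. WWOX, which spans a fragile site, had 6.39, 5.91 and 6.14 in cisplatin cultures and 6.49, 6.41 and 6.66 in untreated cultures. It changed by -0.37 ± 0.09 with groups apart (limma adjusted p = 0.00553), a call that failed without cisplatin culture 2 (0.164). FHIT, which spans another fragile site, was at -0.03 and BBS9 at 0.07, both with overlapping groups. Other long genes chosen in this way did not pass either. TMEM117, STX8 and DPH6 were at -0.38, -0.31 and -0.10, and CPQ, ARL15 and SLC25A21 at 0.09, 0.14 and 0.17.

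Set against the other 17 replicated lines, more genes in IGROV-1 had a more negative change than a more positive one. The contrast of its change with the mean change of the other lines gave 126 genes more positive (0.684%) and 603 more negative (3.27%). After quantile normalization these were 242 and 370, and in the fit with the 4 other lines of batch 3 as the comparison they were 169 and 883. Leaving out 1 culture gave 47 and 131 without untreated culture 1, 61 and 135 without untreated culture 2, 216 and 1220 without untreated culture 3, 75 and 222 without cisplatin culture 1, and 63 and 229 without cisplatin culture 2. Of the 311 genes that rose, 110 had a larger change in IGROV-1 than in each of the other lines, and of the 970 that fell, 352 had a smaller one. Over all 18417 genes, 839 lay above and 978 below each of the other lines, and the called genes had been selected for a large change in IGROV-1, so nothing is read from these counts. Ranks of single genes among the lines were not tested. For FAS, DDB2, IFIT1, CDH1 and MKI67 the gap to the nearest other line was smaller than the standard error. The doses were set per line, so all differences between lines compare responses at each line's own dose.

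**Figure D5:**
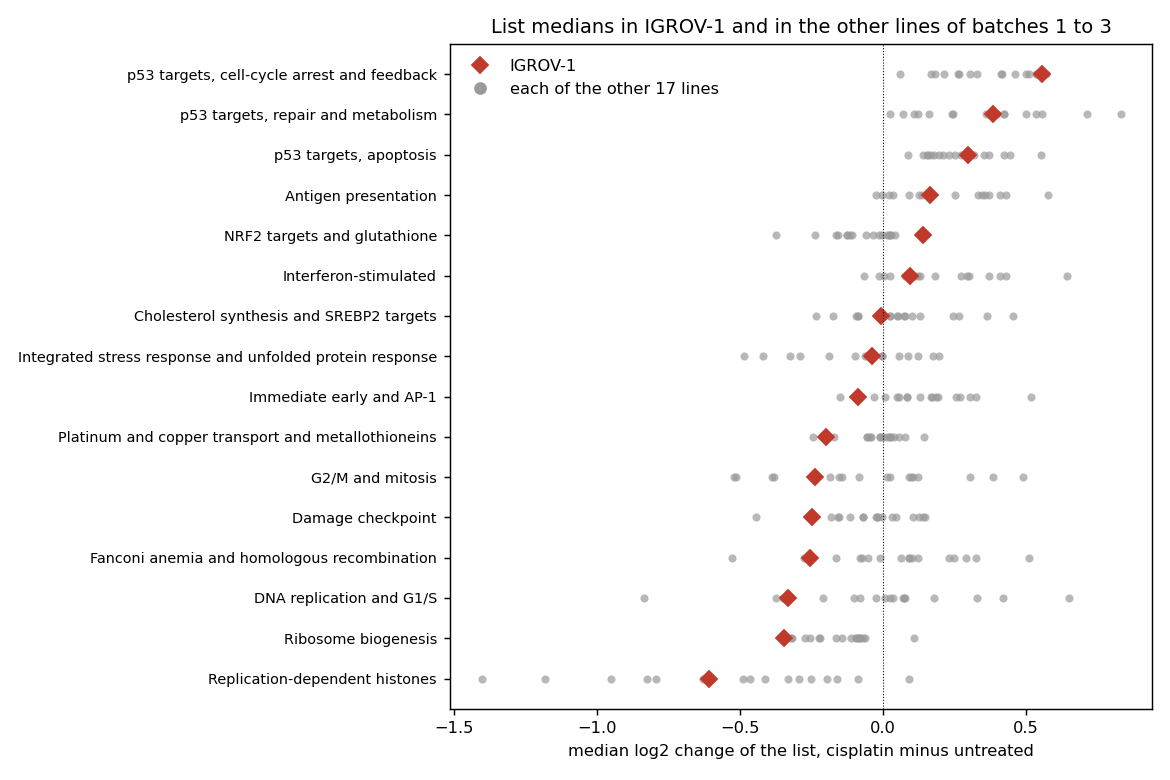
Median log2 change with cisplatin (horizontal axis) of the gene lists with at least 3 calls (rows) in IGROV-1 (red diamonds) and in each of the other 17 lines (grey points). IGROV-1 lies at the high end for NRF2 targets, slightly below the lowest of the other lines for ribosome biogenesis genes, and within the range of the other lines for histone and p53 lists.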

How the data were processed

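The values were the log2 intensities of the deposited value table, 33297 probe sets on 171 arrays, made by the authors with RMA per the submitters' processing notes; its version and the annotation build are not given in the sources used here. There is no read depth for arrays; the precision depends on how many there are. Symbols came from the platform annotation (19460 probe sets with 1 symbol, 1754 with several, 12083 with none listed), were updated by gene identifier with RefSeq GRCh38.p14 names, and the probe set with the highest mean was kept for each of 18417 genes. Batches 4 and 5 lie on another scale (upper quartile 5.80 to 6.59, against 7.82 to 8.08 in batches 1 to 3) and were left out of the model. limma 3.58.1 in R 4.3.3 was fitted to group means of 107 cultures of the 18 replicated lines of batches 1 to 3 (71 residual degrees of freedom), with eBayes and Benjamini-Hochberg adjustment at 0.05; no array was dropped. Contrasts were cisplatin minus untreated in IGROV-1, and that change minus the mean change of the other 17 lines. The steps were tested on simulated data. Replicate numbers did not pair the samples (correlations of deviations for equal numbers -0.09, 0.05 and -0.25). Tables and figures used Python 3.11.15 with pandas 2.3.3 and matplotlib 3.10.9. Motifs were searched in 250 upstream bases of RefSeq promoters.

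The gene lists and members were chosen with earlier results of these data known. The genes named are, in each direction, the 15 with the largest change past the threshold whose groups did not overlap and whose higher arm was at least at the level of the median gene, from each list the 5 or fewer called members with the largest change (2 where none was called), a fixed set (CDKN1A, MDM2, GDF15, FAS, BAX, CCNB1, PLK1, CCNE2, PCNA, SLC31A1, ATP7B, ERCC1, BRCA1, MSH6, CDH1, EPCAM, VIM; 1 more is not analysed here) and the 8 largest differences from other lines in each direction. Further members of a list are given to show its spread.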

Additional observations from a re-analysis of the deposited data

Results flagged for a closer look

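Some changes differed between IGROV-1 and the mean of the other 17 replicated lines by the test of the difference itself. In all, 126 genes were more positive and 603 more negative in IGROV-1 at an adjusted p under 0.05 in limma. The split depends on the scaling of the arrays, and both counts depend on single cultures. The 8 largest differences in each direction follow, each as IGROV-1 minus the mean of the other lines on the log2 scale.

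The histone gene H2BC12 had a difference of 1.28, while most histone genes fell. SNORD116-21, a small nucleolar RNA, had 1.24, with untreated culture 3 above the other untreated cultures. POU5F1B, a retrogene of OCT4, had 1.14 and MIR302B, a microRNA gene, had 1.07. DGKA, a lipid kinase, had 1.09, the interferon-stimulated gene IFIT1 had 1.07 and the complement protease C1R had 1.01. RPL23P8, annotated as a ribosomal protein pseudogene, had 0.97 with groups that overlapped.

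JUN had a difference of -1.06, though its own change in IGROV-1 did not pass. The E2F repressors E2F8 and E2F7 had -0.89 and -0.79, and only the first passed within IGROV-1. TAGLN, an actin-binding gene, had -0.86, CEMIP2, a hyaluronan-degrading membrane protein, -0.82, the nuclease gene EXO1 -0.80, DOCK5, an activator of the GTPase RAC, -0.79, and the histone deacetylase gene HDAC9 -0.79.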

How the results depend on the processing

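Counts of calls moved with several choices. Of the 102 named changes past the threshold, 0 changed sign in an alternative run, but in many runs this could not occur. Runs that change only the other lines or the test keep the same change in IGROV-1. Leaving out a single culture cannot turn the sign where groups do not overlap. Fitted to the 6 arrays alone, 85 genes were higher and 64 lower, with 56 of the named calls lost. With the lines of batch 3 only, 157 were higher and 357 lower, and 63 and 308 differed from the other lines in the positive and negative direction. Quantile normalization gave 476, 637, 242 and 370 for these same 4 counts, requiring a change above 1.2-fold gave 27, 23, 3 and 6, and array weights, whose estimation stopped before it converged, gave 787, 2367, 518 and 1982. Without the lines OVCAR-10 and OVCA420 190 genes differed positively. Leaving out each IGROV-1 culture in turn gave 167 to 338 higher, 348 to 1500 lower, 47 to 216 differing positively and 131 to 1220 differing negatively. Of 174 genes of the lists or named that passed, 97 passed without each culture. The replicate block gave 252 higher, 757 lower, 101 differing positively and 378 negatively, but the numbers do not pair the samples. Median centring, leaving out dim genes, averaging probe sets and a trended robust fit kept all 4 counts within 1.5 times. The cause of these movements was not tested. Probe sets near background carry little signal, and 3 cultures per arm limit the precision.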
